A study of Mus musculus with 23 samples.

Results

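Type I interferon response genes were examined in marrow cells of irradiated mice that carried 1 working copy of Pax5 (Pax5+/-) or both copies (wild type, WT), before and after leukemia arose. The members were a list of 37 gene symbols, each measured on the arrays by the probe set of highest mean that names that symbol alone. Of the 37, 34 had such a probe set and all 34 passed the filter on low signal, among 15542 genes tested of 19938 symbols with a probe set. Isg15 and Gbp2 lie on probe sets shared with another symbol, and Ifi44 is not listed in the annotation used here, so these 3 were left out.

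Every mouse had received a single dose of 2 Gy at 2 months of age, so no group was unirradiated. Leukemic marrow gave 10 Pax5+/- samples (1 to 10) and 3 WT samples (14, 15 and 17). Preleukemic precursors (pro-B with pre-B cells) were collected 3 weeks after the dose as 7 Pax5+/- samples (11 to 13 and 21 to 24) and 3 WT samples (18 to 20). In their titles the leukemic samples are pro-B cells and in their descriptions leukemic marrow, and no sort, sex or strain is stated. Stage therefore cannot be told apart from time after the dose or from the kind of cell preparation. Each sample is numbered here as in its title.

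Type I interferons are secreted proteins that bind the receptor Ifnar1-Ifnar2. The kinases Jak1 and Tyk2 then activate signalling factors, Stat2 among them, and a complex of Stat2 with Irf9 enters the nucleus and binds the interferon-stimulated response element (ISRE) in the promoters of target genes. The induced proteins sense, degrade or block viral nucleic acids, and some of them, such as Irf7 and Usp18, strengthen or end the response itself. Marrow cells of several lineages, macrophages and plasmacytoid dendritic cells among them, make and answer these interferons.

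The ISRE is the sequence that most of these genes are known to share, so promoters are shown for members that differed between the stages in either direction. Promoter windows of 250 bases before to 50 bases after each start were taken from RefSeq (GRCm38.p6), in which 25 of the 34 members were matched. The ISRE core searched was GAAA, any 2 bases, GAAA, on both strands. It was present in a window of 11 of the 25 members (44%) and of 3.99% of all 27025 genes with a window. By stage difference in Pax5+/- mice, the core was present for 4 of 9 matched members that were higher in leukemia, 2 of 6 that were lower and 5 of 10 that were not called. A related composite, GGAA, any 2 bases, GAAA, was present for 12% of the members and 3.16% of all genes, and the STAT element TTC, any 3 bases, GAA for 32% and 9.55%; a composite and an ISRE core can overlap. A match describes letters in this window and is not a binding measurement.

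The windows are printed 5′ to 3′ on the gene's strand, with ISRE cores in capitals; a core on the opposite strand reads TTTC, 2 bases, TTTC. The first 4 belong to members that were higher in Pax5+/- leukemia and the last 2 to members that were lower. Ifitm3 is at chr7:141010695-141010994 on the minus strand, Ifit1 at chr19:34640639-34640938 on the plus strand and Eif2ak2 at chr17:78882523-78882822 on the minus strand. Oas3 is at chr5:120777610-120777909 on the minus strand, Ddx58 at chr4:40239776-40240075 on the minus strand and Stat2 at chr10:128270248-128270547 on the plus strand.
Ifitm3: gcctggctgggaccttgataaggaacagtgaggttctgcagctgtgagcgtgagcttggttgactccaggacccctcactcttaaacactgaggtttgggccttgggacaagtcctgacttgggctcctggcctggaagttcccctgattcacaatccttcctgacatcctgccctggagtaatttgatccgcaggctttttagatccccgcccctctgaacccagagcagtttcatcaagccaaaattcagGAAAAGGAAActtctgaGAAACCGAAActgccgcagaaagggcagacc
Ifit1: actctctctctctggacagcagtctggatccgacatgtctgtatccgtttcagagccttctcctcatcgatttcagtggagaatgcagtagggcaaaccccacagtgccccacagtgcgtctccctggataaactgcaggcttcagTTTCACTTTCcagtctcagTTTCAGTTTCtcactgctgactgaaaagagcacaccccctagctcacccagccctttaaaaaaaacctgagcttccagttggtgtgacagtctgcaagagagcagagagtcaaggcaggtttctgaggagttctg
Eif2ak2: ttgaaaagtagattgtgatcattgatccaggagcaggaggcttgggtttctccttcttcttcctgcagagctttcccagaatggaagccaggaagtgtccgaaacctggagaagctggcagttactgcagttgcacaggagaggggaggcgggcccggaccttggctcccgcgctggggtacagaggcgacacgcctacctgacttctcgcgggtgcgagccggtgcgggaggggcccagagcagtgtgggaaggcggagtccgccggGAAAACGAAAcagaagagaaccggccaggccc
Oas3: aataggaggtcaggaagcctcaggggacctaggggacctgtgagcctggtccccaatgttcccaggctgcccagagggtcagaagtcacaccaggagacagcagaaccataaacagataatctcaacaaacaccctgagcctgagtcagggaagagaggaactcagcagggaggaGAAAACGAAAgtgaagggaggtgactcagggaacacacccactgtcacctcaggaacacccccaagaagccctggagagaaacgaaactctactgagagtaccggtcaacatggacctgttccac
Ddx58: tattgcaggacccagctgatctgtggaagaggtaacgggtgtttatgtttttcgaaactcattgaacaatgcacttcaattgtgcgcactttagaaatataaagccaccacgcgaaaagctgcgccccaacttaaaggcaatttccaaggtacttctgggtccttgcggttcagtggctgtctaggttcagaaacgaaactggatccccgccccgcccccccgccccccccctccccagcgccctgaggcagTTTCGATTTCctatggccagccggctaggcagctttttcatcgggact
Stat2: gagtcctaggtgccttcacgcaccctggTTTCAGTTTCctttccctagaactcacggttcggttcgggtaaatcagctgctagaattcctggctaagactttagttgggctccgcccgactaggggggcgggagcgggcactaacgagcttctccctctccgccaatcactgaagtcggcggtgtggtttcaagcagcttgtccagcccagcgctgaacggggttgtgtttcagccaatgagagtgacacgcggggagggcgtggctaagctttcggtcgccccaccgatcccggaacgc
Ifitm3 and Ifit1 each held 2 cores and the others 1. In Ifitm3, Eif2ak2 and Ddx58 the cores lay just after the annotated start, and in Ifit1, Oas3 and Stat2 before it. Members that were higher and members that were lower in leukemia both carried the core.

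The signals are log2 values per probe set, with array medians between 6.06 and 6.2, and precision is limited by how many arrays there are. Each sample is 1 array. Every sample carries an identifier of its own, but the labels do not say that each is a separate animal, so p-values measure the spread between these samples, which may be partly technical. B-lineage markers (9 measured, such as Cd79a and Vpreb1) had a mean log2 signal of 11.9 to 12.2 in the preleukemic samples, 10.6 to 11.5 in Pax5+/- leukemias and 9.63 to 11.1 in WT leukemias, so all samples held B-lineage RNA. Preleukemic WT sample 20 stood apart, with a neutrophil marker mean of 10.7 against 6.49 and 6.51 in the other WT preleukemic samples, and all 9 NK cell and all 8 T cell markers measured were highest in it within its group. WT leukemia 15 stood apart as well, with the lowest B-lineage mean (9.63) and all 9 NK cell markers highest in its group. By Xist and Eif2s3y, 5 of 10 Pax5+/- leukemias, 3 of 7 Pax5+/- preleukemic samples, all 3 WT leukemias and 0 of 3 WT preleukemic samples were female in pattern, so sex and stage cannot be told apart in WT mice. Results that rest on samples 15 and 20 are given with and without them.

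**Figure D1:**
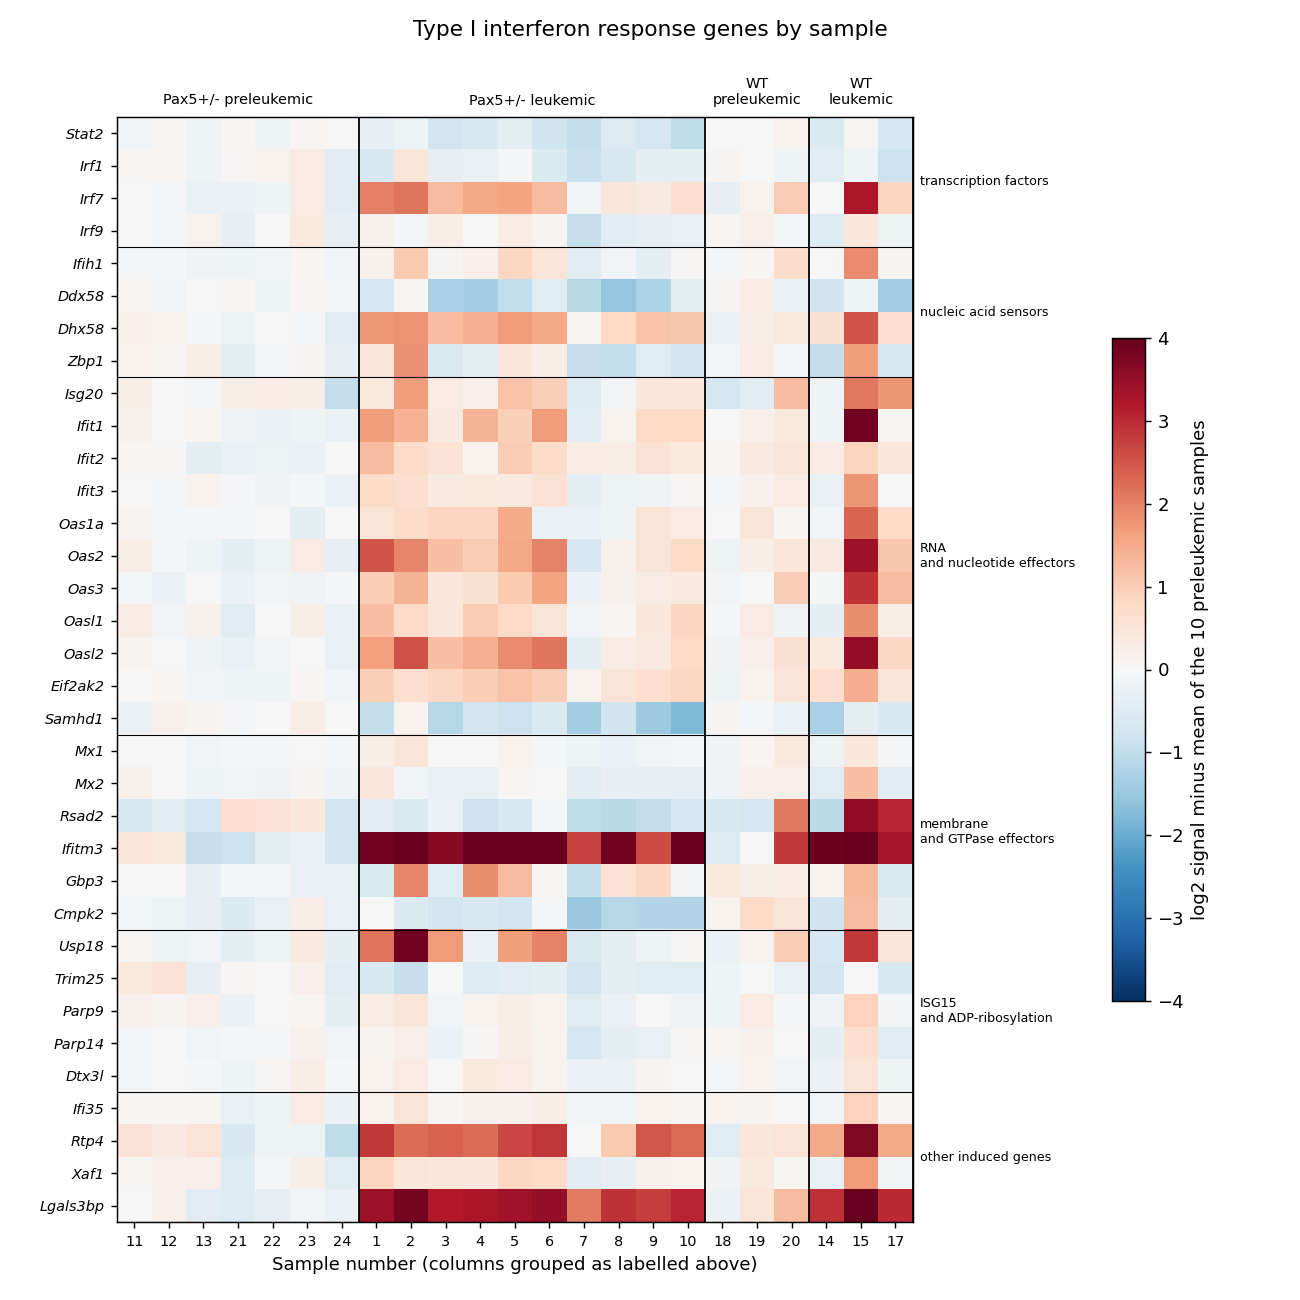
Log2 signal of the 34 members (rows, grouped by role) in each of the 23 samples (columns), minus the gene's mean over the 10 preleukemic samples; the colour scale stops at 4 in either direction. Ifitm3, Lgals3bp and Rtp4 are the reddest rows in the Pax5+/- leukemias, Stat2, Ddx58 and Samhd1 are blue in most leukemias, and WT leukemia 15 is the reddest column overall while Pax5+/- leukemia 7 is pale.

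The first comparison asked how these genes differ between leukemia and preleukemic precursors of Pax5+/- mice. Of the 34 members 12 rose (35.3%, beside 28% of all 15542 genes tested), led by Ifitm3 (18.3-fold), Lgals3bp (10.2-fold) and Rtp4 (4.51-fold). Another 6 fell (17.6%, beside 36.5% of all genes), led by Samhd1 (1.98-fold) and the RNA sensor Ddx58 (1.84-fold), and 16 did not pass the test. Calls are limma adjusted p under 0.05, and the share that rose was near that of all genes. The median difference of the members was 0.34 on the log2 scale, beside -0.05 over all genes tested. In bulk samples such as these, a different share of a cell type and a different amount of RNA per cell cannot be told apart.

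Among the 4 transcription factors, 1 rose (25%, beside 28% of all genes), 2 fell (50%, beside 36.5%) and 1 was not called. Irf7, which drives interferon gene transcription and is itself induced, had log2 signals of 6.60 to 7.40 (median 6.90) in the 7 preleukemic samples and of 6.95 to 9.21 (median 8.32) in the 10 leukemias. The highest leukemias were 2 (9.21) and 1 (9.09), and leukemia 7 lay inside the preleukemic range. The rise was 2.34-fold (log2 difference 1.23, SE 0.37, adjusted p = 0.00647), and with the monocyte and macrophage marker mean as a covariate the difference was -0.16 and not called. The ranges of that covariate in the stages do not meet, so the fit does not test the part of those cells. Stat2, the subunit of the ISRE-binding complex that activates transcription, had signals of 8.73 to 9.00 (median 8.93) before leukemia and 7.88 to 8.71 (median 8.26) in leukemia. The groups did not overlap, and Stat2 fell 1.52-fold (log2 difference -0.60, SE 0.12, adjusted p = 0.000124). Irf1, an induced activator of antigen presentation genes, ranged from 9.09 to 9.86 before leukemia and from 8.64 to 10.01 in leukemia. It fell 1.29-fold with adjusted p = 0.0347, and leukemia 2 held the highest value of either group. The call was lost in 9 of the 23 fits that each left out 1 sample, those without leukemia 1, 6, 7 or 8 or preleukemic sample 11, 12, 21, 22 or 23. Irf9, the DNA-binding subunit of the complex, ranged from 9.16 to 9.88 before leukemia and from 8.58 to 9.80 in leukemia. Its log2 difference was -0.09 (95% interval -0.42 to 0.24, adjusted p = 0.618).

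Among the nucleic acid sensors, Dhx58 (LGP2), a RIG-I relative that tunes RNA sensing, ranged from 6.29 to 6.97 (median 6.72) before leukemia and from 6.81 to 8.56 (median 8.09) in leukemia. Only leukemia 7 overlapped the preleukemic samples, and the rise was 2.48-fold (SE 0.25 on the log2 scale, adjusted p = 0.000123). Ddx58, which encodes RIG-I itself, went the other way, from 9.63 to 9.89 before leukemia to 8.24 to 9.84 in leukemia. Leukemia 2 was the one sample that reached the preleukemic level, and Ddx58 fell 1.84-fold (SE 0.19, adjusted p = 0.000564). Ifih1, the RNA sensor MDA5, and Zbp1, a sensor of Z-form nucleic acids, did not pass, with log2 differences of 0.30 and -0.08.

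Of the 11 RNA and nucleotide effectors, the largest class, 7 rose (63.6%) and 1 fell (9.09%), where 28% and 36.5% of all genes did. Oasl2, an oligoadenylate synthetase-like protein, ranged from 6.88 to 7.29 (median 7.07) before leukemia and from 6.77 to 9.71 (median 8.48) in leukemia. It was lowest in leukemia 7 and highest in leukemia 2, and it rose 2.45-fold (SE 0.40, adjusted p = 0.00737). Oas2 and Oas3, synthetases that activate RNase L, rose 2.25-fold and 1.73-fold, and their relative Oasl1, which in mice restrains Irf7 translation, rose 1.53-fold. With the monocyte and macrophage covariate, whose ranges in the stages do not meet, the log2 differences of Oasl2, Oas2 and Oas3 were -0.30, -0.25 and -0.30. None of the 3 was called. The call of Oas3 was also lost without leukemia 6, and that of Oasl1 without preleukemic sample 21. Eif2ak2, the kinase PKR that halts translation, ranged from 7.02 to 7.30 before leukemia and from 7.35 to 8.34 in leukemia. The groups did not overlap, and the rise was 1.78-fold (SE 0.14, adjusted p = 2.91e-05). Ifit2 (5.22 to 5.63 before leukemia, 5.70 to 6.84 after) also did not overlap and rose 1.66-fold, while Ifit1, which binds viral RNA caps, rose 1.94-fold with adjusted p = 0.0474. The Ifit1 call was lost in 17 of the 23 fits that left out 1 sample, and also with robust priors, with sex or the monocyte and macrophage mean as a covariate, and without leukemias 2, 6 and 7. The signals of Ifit1, Ifit2 and Ifit3 lay on average below the median signal of the arrays, as did those of Ifih1, Mx1 and Mx2.

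Samhd1, which breaks down deoxynucleotides, was the effector that fell. It ranged from 11.48 to 12.00 (median 11.75) before leukemia and from 9.93 to 11.85 (median 10.83) in leukemia. Leukemia 2 alone lay inside the preleukemic range, and the fall was 1.98-fold (SE 0.19, adjusted p = 0.000168). Oas1a, the exonuclease Isg20 and Ifit3 were not called, with log2 differences of 0.54, 0.50 and 0.30.

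Ifitm3, a membrane protein that blocks fusion of viruses with endosomes, had the widest difference of any member. Its signal was 6.26 to 7.70 (median 6.82) in the preleukemic samples and 9.79 to 11.89 (median 11.18) in the leukemias. Every leukemia lay above every preleukemic sample by more than 2 log2 units, and the rise was 18.3-fold (log2 difference 4.20, SE 0.40, adjusted p = 1.97e-08). Cmpk2, a mitochondrial nucleotide kinase, fell 1.48-fold with adjusted p = 0.0477, a call lost in 16 of the 23 fits that left out 1 sample, with array weights, with median centring and with the monocyte and macrophage covariate. The GTPases Mx1 and Mx2, the guanylate-binding protein Gbp3 and the antiviral enzyme Rsad2 (viperin) were not called. Rsad2 and Cmpk2 are adjacent genes on chromosome 12, and their log2 differences were -0.54 and -0.56.

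Of the genes of ISG15 conjugation and ADP-ribosylation, 1 of 5 was called, as lower (20%, beside 36.5% of all genes). Trim25, the ubiquitin ligase that activates RIG-I, ranged from 9.37 to 10.39 before leukemia and from 8.89 to 9.81 in leukemia, and fell 1.48-fold (SE 0.14, adjusted p = 0.00177). Usp18, which removes ISG15 and blocks Ifnar2 signalling, ranged from 6.62 to 7.35 before leukemia and from 6.44 to 10.86 in leukemia. Its leukemias fell on both sides of the preleukemic range, and its log2 difference of 1.14 was not called (95% interval -0.01 to 2.29, adjusted p = 0.0758). With the monocyte and macrophage covariate, whose ranges in the stages do not meet, it was called lower (log2 difference -2.10, adjusted p = 0.0382). Parp9 and Dtx3l, which encode partner proteins and are neighbours on chromosome 16, and Parp14 nearby had log2 differences of 0.04, 0.10 and -0.05.

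Of the remaining induced genes, Lgals3bp, a secreted galectin-binding glycoprotein, ranged from 6.50 to 7.21 (median 6.73) before leukemia and from 9.08 to 10.83 (median 10.25) in leukemia. The groups did not overlap, and the rise was 10.2-fold (log2 difference 3.35, SE 0.24, adjusted p = 2.15e-10). Rtp4, a chaperone of receptors that is induced by interferon, ranged from 5.67 to 7.26 (median 6.48) before leukemia and from 6.70 to 9.55 (median 8.98) in leukemia. Leukemia 7 alone overlapped the preleukemic samples, and the rise was 4.51-fold (SE 0.39, adjusted p = 6.59e-05). Ifi35 and Xaf1 were not called, with log2 differences of 0.17 and 0.38.

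Markers of other cells moved with stage too. Of 13 monocyte and macrophage markers, 10 rose (76.9%, beside 28% of all genes) and none fell. Their mean signal was 5.96 to 6.18 in Pax5+/- preleukemic samples and 6.86 to 9.06 in Pax5+/- leukemias, with no overlap and with leukemia 2 highest. Of 14 neutrophil markers 11 rose (78.6%), as did all 5 megakaryocyte markers measured and 4 of 8 plasmacytoid dendritic cell markers (50%). Bst2, in the last of these lists, is also in the list of other interferon-induced genes. Of 10 stroma and endothelium markers 8 rose (80%) and 1 fell (10%, beside 36.5% of all genes). Their mean was 6.55 to 6.75 before leukemia and 7.44 to 8.62 in leukemia, without overlap. Of 9 B-lineage markers 6 fell (66.7%), of 5 erythroid markers 1 fell, of 8 T cell markers 1 rose and of 8 NK cell markers none was called. Lepr and Cxcr2 were above the filter value on none of the Pax5+/- preleukemic arrays, and Fcgr1 and Mmp8 on 1. These 4 entered the test through the leukemias, so the stroma, neutrophil and monocyte counts are not read further. The part of these cells in the results was not tested. With the monocyte and macrophage mean as a covariate, 7 members were called in place of 18: Usp18, Ifitm3 and Lgals3bp with Stat2, Irf1, Ddx58 and Samhd1, 2 of them higher and 5 lower. Of the 18 first called, 12 lost the call, 4 of them with the opposite sign (Irf7, Oas2, Oas3 and Oasl2), and Usp18 was gained as lower. The median difference of the members was -0.30 in place of 0.34, and 12 of 34 differences were above 0 in place of 23. Because the covariate itself separates the stages, that fit compares samples whose covariate ranges do not meet, and it is no test of the part of those cells. Without leukemias 2, 6 and 7 together 17 members were called, and leaving out any 1 sample gave 15 to 19.

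**Figure D2:**
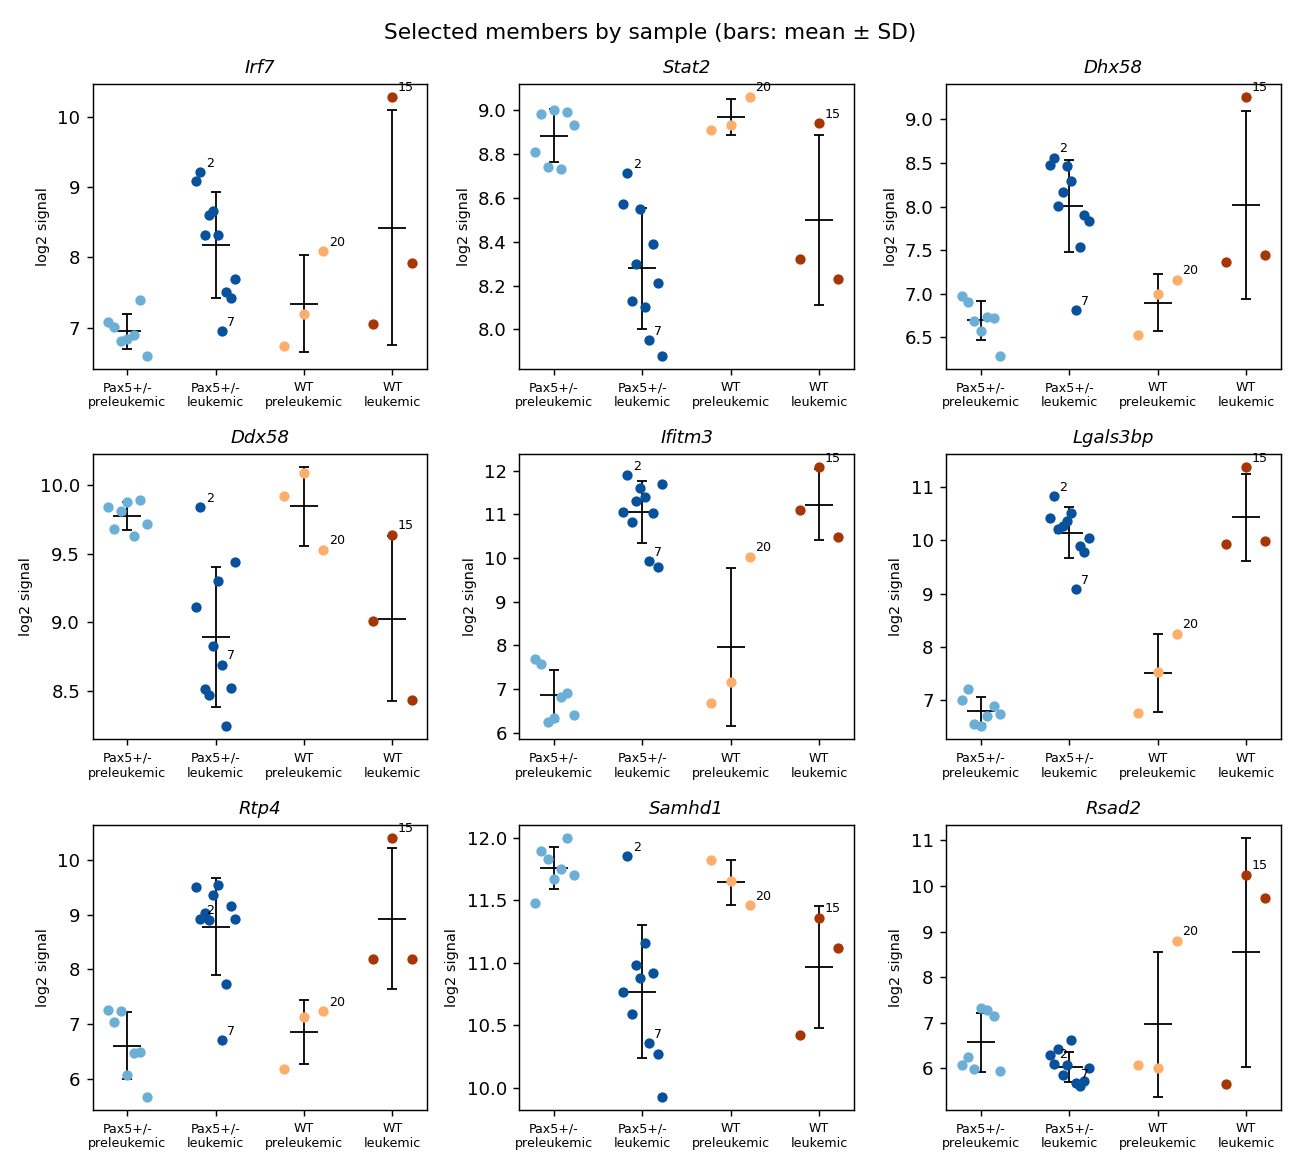
Log2 signal of 9 members by sample in the 4 groups, with the mean and SD of each group as a black bar; samples 2, 7, 15 and 20 are numbered and each vertical axis has its own range. Ifitm3 and Lgals3bp separate the stages in both genotypes, Ddx58, Stat2 and Samhd1 are lower in most leukemias, and Rsad2 is above 8 only in samples 15, 17 and 20.

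The leukemias of Pax5+/- mice differed widely among themselves in these genes. The SD over the 10 leukemias had a median of 0.48 over the 34 members and 0.17 over all genes tested, and each of the 34 members lay above that all-gene median. The spread was widest for Usp18 (SD 1.47) and narrowest for Ifi35 (SD 0.18). In the 7 Pax5+/- preleukemic samples the corresponding medians were 0.22 and 0.12.

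The mean signal over the 34 members ranked the leukemias. It was 8.25 in leukemia 1, 8.54 in 2, 7.89 in 3, 7.99 in 4, 8.27 in 5, 8.21 in 6, 7.12 in 7, 7.49 in 8, 7.65 in 9 and 7.75 in 10. Leukemia 2 held the highest value of the group for 17 members and leukemia 7 the lowest for 24. In the Pax5+/- preleukemic samples the mean ran from 7.16 to 7.55, so leukemia 7 lay below all of them and leukemia 8 among them.

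The identifiers of the Pax5+/- samples begin with a letter whose meaning is not stated. The 5 leukemias with U (1 to 5) had member means of 7.89 to 8.54, the 4 with Y (6 to 9) 7.12 to 8.21, and the 1 with L (sample 10) 7.75. Preleukemic samples carry L (7.26 to 7.55) or I (7.16 to 7.53). Letter L is thus the only one with both stages. Its 1 leukemia differed from the mean of its 3 preleukemic samples in the direction of the whole genotype for 30 of the 34 members; these 4 samples also enter that comparison, so the count is no separate check of it.

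Leukemia 2 also had the highest means of other lists in its group. Its interferon-gamma and antigen processing genes averaged 9.74, and the group median was 8.86. Its T cell marker mean was 7.18 and its monocyte and macrophage mean 9.06, where the group medians were 5.79 and 7.72. Of the 13 monocyte and macrophage markers it held the highest value for 9, and of the 8 T cell markers for 5. Leukemia 7, the lowest in the members, had a B-lineage mean of 11.54 and a neutrophil mean of 6.42. Leukemias 3 and 5 had like B-lineage means (11.54 and 11.47) with member means of 7.89 and 8.27. The lowest neutrophil mean (6.13) was that of leukemia 4, whose member mean was 7.99. The part of these markers in the order of the leukemias was not tested.

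The second comparison asked the same question in WT mice, 3 leukemias against 3 preleukemic samples. Here 5 of the 34 members rose: Ifitm3 (9.6-fold), Lgals3bp (7.62-fold), Rtp4 (4.23-fold), Dhx58 (2.18-fold) and Eif2ak2 (1.66-fold), and none fell. That is 14.7% higher where 17.9% of all genes rose and 0 lower where 19.3% of all genes fell (limma). An unadjusted p under 0.05 was reached by 11 of the 34 members, where 37.2% of all genes passed the adjusted threshold. The median difference of the members was 0.34, beside -0.06 over all genes.

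Ifitm3 had signals of 6.68, 7.17 and 10.03 in preleukemic samples 18, 19 and 20 and of 11.10, 12.08 and 10.49 in leukemias 14, 15 and 17. The lowest leukemia lay above the highest preleukemic sample, sample 20 being close below it, and the log2 difference was 3.26 (SE 0.67, adjusted p = 0.000823). Lgals3bp had signals of 6.76, 7.52 and 8.24 before leukemia and of 9.94, 11.38 and 9.99 in leukemia. The groups were well apart, with a log2 difference of 2.93 (SE 0.39, adjusted p = 1.21e-05). Rtp4 had signals of 6.18, 7.13 and 7.24 before leukemia and 8.19, 10.41 and 8.19 in leukemia, with adjusted p = 0.0157. Leukemia 15 was the highest of each of these genes.

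Dhx58 had signals of 6.53, 7.00 and 7.16 before leukemia and 7.36, 9.26 and 7.44 in leukemia, without overlap and with adjusted p = 0.0371. Eif2ak2 had signals of 6.99, 7.34 and 7.71 before leukemia and 7.87, 8.66 and 7.70 in leukemia, with adjusted p = 0.0168. Here leukemia 17 and preleukemic sample 20 met at nearly the same level.

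None of the 4 transcription factors was called in WT mice. Irf7 had signals of 6.74, 7.20 and 8.09 before leukemia and 7.06, 10.29 and 7.92 in leukemia (log2 difference 1.08, 95% interval -0.19 to 2.35). Only leukemia 15 exceeded preleukemic sample 20. Stat2 had signals of 8.91, 8.93 and 9.06 before leukemia and 8.32, 8.94 and 8.23 in leukemia (log2 difference -0.47, adjusted p = 0.056). Leukemias 14 and 17 lay below the preleukemic samples, and leukemia 15 lay among them. Irf1 was 9.63, 9.51 and 9.35 before leukemia and 9.09, 9.34 and 8.66 in leukemia, without overlap and with adjusted p = 0.14. Irf9 was 9.56, 9.70 and 9.41 before leukemia and 8.97, 9.91 and 9.29 in leukemia. Ddx58 missed the threshold, with a log2 difference of -0.82 and adjusted p = 0.0508, and Samhd1 did not overlap between the stages but had adjusted p = 0.0992.

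WT leukemia 15 held the highest value of its group for all 34 members. Its member mean was 9.27, where leukemias 14 and 17 had 7.46 and 7.84 and the preleukemic samples 18, 19 and 20 had 7.34, 7.63 and 7.90. Ifit1 was 9.26 in leukemia 15 and 5.17 and 5.43 in the others. Without leukemia 15 the median difference of the members was -0.18, 13 of 34 differences were above 0 in place of 23, and 6 members were called: Ifitm3, Lgals3bp, Stat2, Ddx58, Mx2 and Cmpk2. Without leukemia 14 the median was 0.71 and 13 members were called (4262 of all genes). Without preleukemic sample 18 there were 2 calls (3828 of all genes), and without preleukemic sample 20 there were 9 (6902 of all genes). Without Pax5+/- leukemia 2, which enters through the shared spread, there were 8 (6047 of all genes). With all samples 5 members and 5780 of all 15542 genes were called. Ifitm3 and Lgals3bp were called in each of these fits.

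The NK cell marker mean, over 9 measured genes such as Ncr1 and Gzma, was 8.84 in leukemia 15 and 5.31 and 5.56 in leukemias 14 and 17. Its T cell mean was 6.76 (5.81 and 5.92 in the others), while its monocyte and macrophage mean of 8.26 was the lowest of the 3 (8.29 and 8.43 in the others). Leukemia 15 was also the highest of its group for 43 of 50 other interferon-induced genes and 13 of 18 interferon-gamma and antigen processing genes. Between the WT stages 7 of 13 monocyte and macrophage markers rose (53.8%), where 17.9% of all genes did. All 5 megakaryocyte markers and 2 of 5 erythroid markers (40%) rose too. Of 10 stroma and endothelium markers 7 rose (70%) and 1 fell (10%, beside 19.3% of all genes). Of 14 neutrophil markers 1 rose (7.14%), and of 8 plasmacytoid dendritic cell markers none rose and 1 fell (12.5%). Of 9 B-lineage markers 7 fell (77.8%), and no T cell or NK cell marker was called. Lepr and Fcgr1 were above the filter value on none of the WT preleukemic arrays, so the stroma and monocyte counts are not read further. The part of these markers in the WT results was not tested.

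**Figure D3:**
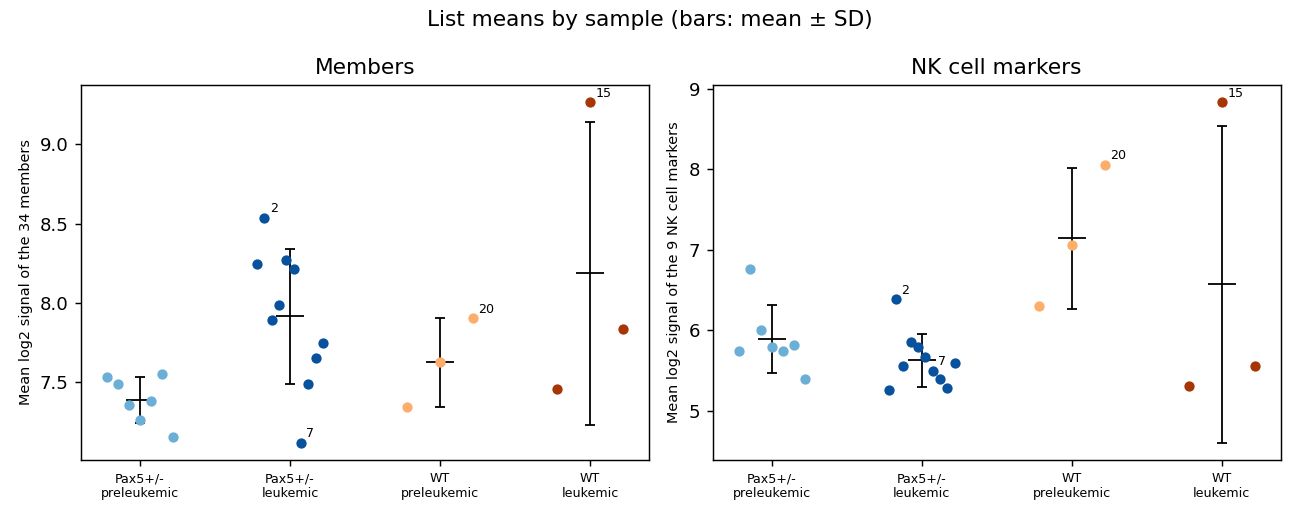
Mean log2 signal of the 34 members (left) and of the 9 NK cell markers (right) in each sample, with the mean and SD of each group as a black bar and samples 2, 7, 15 and 20 numbered. WT leukemia 15 is at 9.27 for the members and 8.84 for the NK cell markers, above every other sample in both, and Pax5+/- leukemia 7 at 7.12 is the lowest sample for the members.

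The stage differences were set side by side in the 2 genotypes, which share no samples. Of the 34 members 30 had the same sign in both (88.2%), as did 87.2% of all genes tested. The exceptions were Mx1, Mx2, Gbp3 and Rsad2. The test of the difference itself, the interaction of genotype and stage, called 0 of the 34 members (limma), where 0.0965% of all genes were called higher and none lower. At an unadjusted p under 0.05 there was 1, Rsad2, and the share of all genes at that cut is not given here. For Ifitm3 the rise was larger in Pax5+/- mice by 0.93 on the log2 scale with a 95% interval of -0.69 to 2.55. Without WT preleukemic sample 20, the highest of its group for Ifitm3 (10.03), this difference was -0.10. The larger Ifitm3 rise in Pax5+/- mice therefore rested on that sample. For Lgals3bp the difference between the rises was 0.42 (interval -0.54 to 1.37), and for Irf7 it was 0.15 (interval -1.33 to 1.63). These intervals are wide, since each rests on 3 WT samples a stage. The median interaction over the members was -0.03, and it was 0.47 without leukemia 15.

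**Figure D4:**
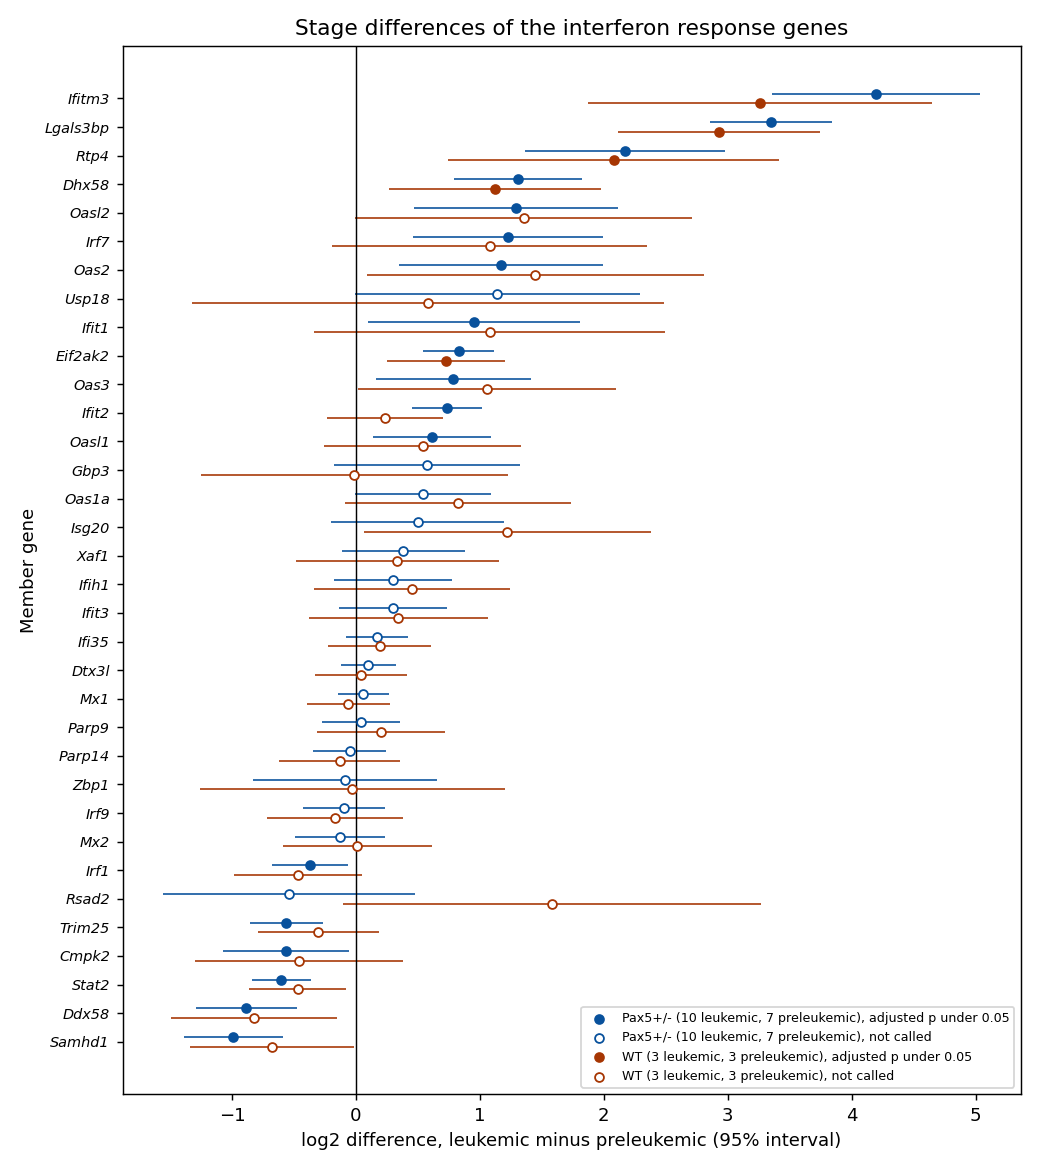
Log2 difference of each member, leukemic minus preleukemic, with its 95% interval in Pax5+/- mice (blue) and WT mice (brown); filled points passed the adjusted threshold. The intervals are wider in WT mice, Ifitm3 and Lgals3bp lead in both, and Rsad2 is the member whose estimates lie farthest apart (-0.54 and 1.58).

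The third comparison set Pax5+/- against WT precursors 3 weeks after irradiation. None of the 34 members was called in either direction, where 0.232% of all genes were higher and 0.392% lower in Pax5+/- cells. By limma's unadjusted p under 0.05 there were 2, Ifit2 (log2 difference -0.44, p = 0.0323, adjusted p = 0.486) and Lgals3bp (-0.71, p = 0.0434, adjusted p = 0.53). The share of all genes at that cut is not given here, so these 2 are not read as a result. The nearest other member was Cmpk2, with a log2 difference of -0.69 and adjusted p = 0.577. The median difference was -0.20, beside 0.00 over all genes. Of the 34 differences 3 were above 0, where 50% of those of all genes were.

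Ifit2 had signals of 5.22 to 5.63 (median 5.37) in the 7 Pax5+/- samples and 5.63, 5.92 and 6.06 in the WT samples. The groups met at 5.63. Lgals3bp had signals of 6.50 to 7.21 (median 6.73) in Pax5+/- samples and 6.76, 7.52 and 8.24 in WT samples. Gbp3 was at 6.24 to 6.60 in Pax5+/- and 6.81 to 6.96 in WT samples, and it was called when the 2 groups were fitted without the leukemias. In the main limma fit its log2 difference of -0.44 was not called (adjusted p = 0.918). The share of all genes whose values do not overlap is not given here, so this separation is not read further. The 4 transcription factors had differences between -0.39 for Irf7 and 0.04 for Irf1, with intervals that all include 0. WT sample 20 was the highest of its group for 19 members, and without it the median difference was -0.09. Without this sample the differences of Irf7, Lgals3bp and Ifit2 were -0.02, -0.35 and -0.34.

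In WT sample 20 Ifitm3 was 10.03 against 6.68 and 7.17 in samples 18 and 19, and Rsad2 was 8.80 against 6.08 and 6.01. All 14 neutrophil markers were highest in this sample within its group (list mean 10.7, others 6.49 and 6.51), and 7 of 8 plasmacytoid dendritic cell markers were too. Bst2, among those 7, is also in the list of other interferon-induced genes. The part of these markers in the values of sample 20 was not tested.

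The fourth comparison set Pax5+/- against WT leukemias. None of the 34 members was called, where 0.0257% of all genes were higher and 0.315% lower in Pax5+/- leukemias. In limma 2 members had an unadjusted p under 0.05, and the share of all genes at that cut is not given here. Rsad2 was lower in Pax5+/- leukemias by 5.69-fold without passing (log2 difference -2.51, SE 0.65, p = 0.000927, adjusted p = 0.131), as was its neighbour Cmpk2 by 1.73-fold (p = 0.0233, adjusted p = 0.669). The median difference of the members was -0.16, beside 0.01 over all genes. Of the 34 differences 6 were above 0, where 53.6% of those of all genes were. Without WT leukemia 15 the median was 0.25 and 31 differences were above 0, so the direction over the list rested on that sample. The transcription factors differed by -0.25 (Irf7, 95% interval -1.27 to 0.78), -0.22 (Stat2, -0.54 to 0.10), -0.01 (Irf9, -0.45 to 0.43) and 0.13 (Irf1, -0.28 to 0.55).

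Rsad2 makes a chain-terminating nucleotide that stops viral RNA synthesis. Its signal was 5.60 to 6.61 (median 6.04) in the Pax5+/- leukemias and 5.65, 10.25 and 9.73 in WT leukemias 14, 15 and 17. WT leukemia 14 lay inside the range of the Pax5+/- leukemias, and the other WT leukemias lay far above it. In the Pax5+/- precursors Rsad2 was 7.15 to 7.32 in the samples with letter L (21 to 23) and 5.94 to 6.24 in those with letter I. Cmpk2 was 5.41 to 6.94 in Pax5+/- leukemias and 6.10, 8.18 and 6.52 in WT leukemias 14, 15 and 17, so it did not share the high value of leukemia 17. The Rsad2 difference between the leukemias depended on the WT samples. Without WT leukemia 14 it was -3.96 (adjusted p = 4.25e-05), and the interaction was then called too (-3.56, adjusted p = 0.0089). Without WT leukemia 15 it was -1.66 (adjusted p = 1), without WT leukemia 17 it was -1.92 (adjusted p = 0.647), and without samples 15, 17 and 20 together it was 0.38 (adjusted p = 0.997).

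Alas2, the erythroid heme synthesis enzyme, and Slc4a1, the red cell anion exchanger, moved with Rsad2. The mean of the 5 erythroid markers measured (Klf1, Epor, Alas2, Slc4a1 and Tfrc) was 9.40 and 9.53 in WT leukemias 15 and 17, 8.92 in WT preleukemic sample 20 and 7.77 to 8.03 in Pax5+/- preleukemic samples 21 to 23, and at most 7.54 in all others. Alas2 was 11.00 and 11.13 in WT leukemias 15 and 17 and 6.77 in WT leukemia 14. The samples with the 6 highest Rsad2 signals were thus the 6 with the highest erythroid means. In samples 21 to 23 only Alas2 (9.56 to 10.01) and Slc4a1 (8.01 to 8.40) stood above the other Pax5+/- precursors, which had at most 8.54 and 7.57. Klf1 (5.47 to 5.58), Epor (5.83 to 6.21) and Tfrc (9.84 to 9.95) did not in these 3 samples. Of the 5 markers 2 were called lower in Pax5+/- than in WT leukemias, and the part of erythroid RNA in the Rsad2 values was not tested.

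**Figure D5:**
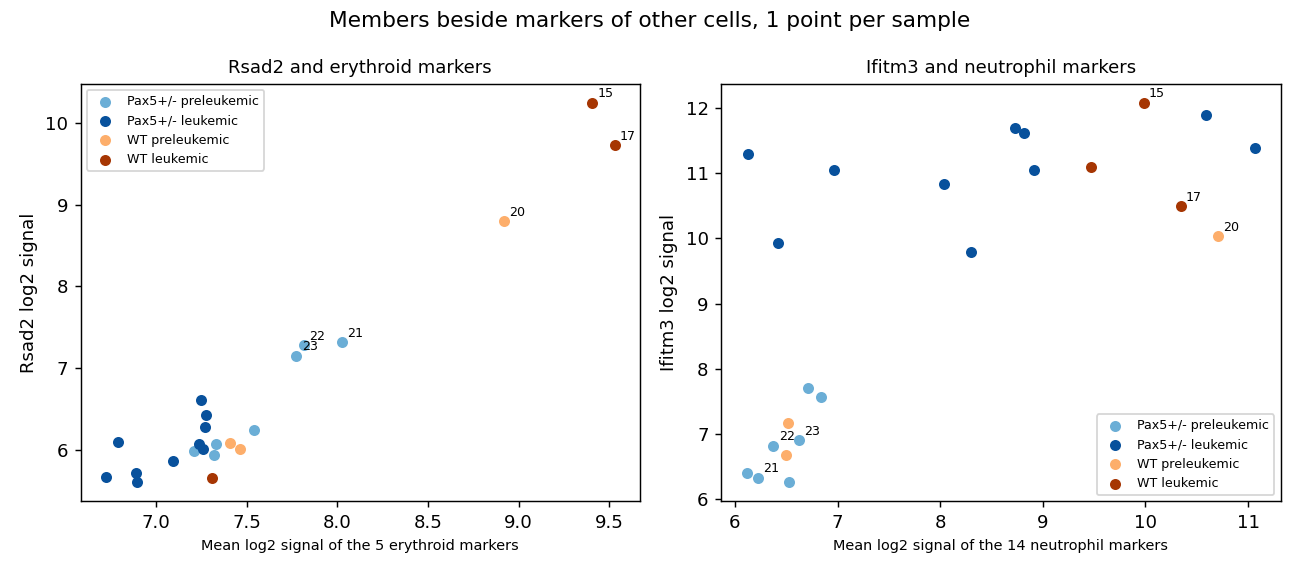
Log2 signal of Rsad2 against the mean of 5 erythroid markers (left) and of Ifitm3 against the mean of 14 neutrophil markers (right), 1 point per sample, coloured by group. Samples 15, 17, 20 and 21 to 23 have the highest erythroid means and Rsad2 signals. Ifitm3 is above 9.7 in every leukemia, over neutrophil means from 6.13 to 11.07, and in WT preleukemic sample 20.

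Ifitm3 was set beside the neutrophil markers in the same way. Among the precursors, WT sample 20 had the highest neutrophil mean (10.70) and the highest Ifitm3 signal (10.03). Samples 11 and 12 were the highest Pax5+/- precursors in both, with neutrophil means of 6.71 and 6.84 and Ifitm3 signals of 7.70 and 7.57. Pax5+/- leukemias 4 and 7 had the lowest neutrophil means of the leukemias, 6.13 and 6.42, and Ifitm3 signals of 11.30 and 9.93. In the Pax5+/- precursors the neutrophil means were 6.11 to 6.84 and the Ifitm3 signals 6.26 to 7.70. The megakaryocyte marker means of leukemias 4 and 7 were 11.21 and 8.93, where the Pax5+/- precursors had 6.61 to 6.82. The part of neutrophils or megakaryocytes in the Ifitm3 values was not tested.

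The rest of the pathway was read from lists of ligands, receptors, signalling proteins, regulators and other induced genes. Of 20 interferon genes listed, 9 were tested, and 4 fell in each genotype between precursors and leukemia (44.4%, beside 36.5% of all genes in Pax5+/- and 19.3% in WT mice); Ifna5 had the smallest p and fell 1.32-fold in Pax5+/- mice. Ifnb1, the first interferon made in many responses, did not pass the filter, with signals of 4.73 to 4.99 over all 23 samples and no group apart. The ligand list mean was 5.27 to 5.39 in Pax5+/- leukemias, below the array medians. No ligand of those tested was higher in leukemia in either genotype.

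Of 6 interferon receptor genes 2 rose in each genotype (33.3%, beside 28% of all genes in Pax5+/- and 17.9% in WT mice). Ifngr1, a chain of the interferon-gamma receptor, ranged from 9.56 to 10.02 in Pax5+/- precursors and from 11.00 to 11.83 in the leukemias, without overlap, a 2.84-fold rise with adjusted p = 5.3e-10. Ifnar2, the signalling chain of the type I receptor, ranged from 9.52 to 10.13 and from 10.38 to 10.75, also without overlap, and rose 1.57-fold. Ifnar1 had a log2 difference of -0.10 with adjusted p = 0.197.

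Of 11 JAK-STAT and IRF genes tested, 4 fell in Pax5+/- mice (36.4%, beside 36.5% of all genes) and 6 in WT mice (54.5%, beside 19.3%), and none rose. Irf4, a factor of late B-cell development, fell 7.51-fold in Pax5+/- mice, from 11.17 to 11.66 before leukemia to 7.46 to 9.46 after. Irf2, a repressor of interferon targets, fell 1.65-fold, Irf3, which induces interferon genes, 1.19-fold and Irf8, a myeloid and B-cell factor, 1.82-fold.

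Among 9 negative regulators 4 rose (44.4%) and 3 fell (33.3%) in Pax5+/- mice, where 28% and 36.5% of all genes did. Nlrc3, which restrains innate sensing, rose 5.33-fold, from 6.41 to 7.21 before leukemia to 8.56 to 9.66 after, and Socs1, which inhibits JAK kinases, fell 1.72-fold. Of 14 upstream sensors and adaptors 7 rose and 4 fell (50% and 28.6%), but Cgas, Tlr3 and Tlr7 were above the filter value on none of the Pax5+/- preleukemic arrays and entered the test through the leukemias, so this count is not read further. Tlr7, the endosomal RNA receptor, was 4.54 to 5.17 before leukemia and 6.00 to 9.44 after, and leukemia 7 was the lowest of the leukemias. No fold is given against precursors at that level, and Tlr7 was chosen for naming after its values were seen. Sting1, the adaptor of DNA sensing, rose 1.69-fold, whereas Unc93b1, which carries Toll-like receptors to endosomes, fell 2.34-fold and Traf6, an adaptor ubiquitin ligase, 2.55-fold.

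Of 48 other interferon-induced genes tested, 13 rose (27.1%) and 11 fell (22.9%) in Pax5+/- mice, where 28% and 36.5% of all genes did. The relatives of Ifitm3 were among those that rose. Ifitm2 was 7.94 to 8.81 before leukemia and 11.03 to 11.45 after, a 6.92-fold rise with adjusted p = 2.68e-12. Ifitm1 was 7.34 to 7.96 before leukemia and 8.27 to 12.93 after, a 12.1-fold rise, and it too was named after its values were seen. In WT mice 6 of the 48 rose (12.5%) and 7 fell (14.6%), Ifitm1 and Ifitm2 rising 12.2-fold and 4.2-fold. Slfn9, of the Schlafen family, rose 1.83-fold in Pax5+/- mice, and Trim14, an adaptor of RNA sensing, fell 1.79-fold.

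Of 17 interferon-gamma and antigen processing genes 7 rose (41.2%) and 3 fell (17.6%) in Pax5+/- mice, where 28% and 36.5% of all genes did. In WT mice 6 rose (35.3%) and 1 fell (5.88%), where 17.9% and 19.3% did. Psme1 and Psme2, which encode the proteasome activator, rose 1.79-fold and 1.86-fold, the immunoproteasome subunit Psmb8 2.22-fold and the peptide transporter Tap1 2.08-fold in Pax5+/- mice. Between the genotypes before leukemia, Tor3a, an interferon-induced ATPase, was the one gene of these lists that was called, lower in Pax5+/- cells with a log2 difference of -0.90 and adjusted p = 0.0485. Between the genotypes in leukemia none of them was called.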

How the data were processed

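Total RNA of 23 marrow samples was hybridised to 1-colour arrays, and the deposited values are log2 signals per probe set; the authors' processing notes name Transcriptome Analysis Console, and normalization is not given in the sources used here. Of 28944 probe sets, 21789 carried 1 symbol, 1621 several and 5534 none. Genes whose value passed the array's 30th percentile on 3 or more arrays were tested (15542, with 4396 removed). One limma 3.58.1 model in R 4.3.3 held all 4 title groups (eBayes with trend); p-values are two-sided and adjusted by Benjamini-Hochberg across those 15542 genes, with a threshold of 0.05. SEs are on the log2 scale. The fit was tested on simulated data.

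Members and lists were chosen with earlier results of these data known. Per comparison, sample values were given for Irf7, Stat2, Irf9, Irf1 and up to 6 called members of largest difference; from each pathway list up to 4 called genes of smallest p, plus Ifnar1, Ifnar2 and Ifnb1, could be named. Promoters were printed for up to 4 members of largest difference holding the ISRE core, and up to 2 called the other way. Alternatives covered filter, priors, array weights, normalization, groups fitted, probe sets, covariates and samples left out. Figures were drawn with matplotlib 3.10.9.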

Additional observations from a re-analysis of the deposited data

Results flagged for a closer look

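Each member was checked for a single sample far from the rest of its group in the 2 Pax5+/- groups, the WT groups being too small. Of 68 such checks 4 found one, and chance alone finds one in about 1 of 20.

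Zbp1, the sensor of Z-form nucleic acids, was 9.48 in Pax5+/- leukemia 2, where the next highest leukemia had 8.15 and the median was 7.25. Ifi35 was 8.82 in the same leukemia, with the next at 8.49. Leukemia 2 was also the sample with the highest monocyte and macrophage, T cell and NK cell marker means of its group (9.06, 7.18 and 6.38).

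In the Pax5+/- precursors Isg20 was 8 in sample 24, where the next lowest had 8.85 and the median was 9.17, and sample 24 was the lowest of the group for 14 of 34 members. Oas1a was 6.46 in sample 23, where the next lowest had 6.76, while sample 23 was the highest of the group for 14 members.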

How the results depend on the processing

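In Pax5+/- mice 18 members were called between the stages, and 7 to 20 over the alternatives: 7 with the monocyte and macrophage mean as a covariate, 15 to 19 when each sample in turn was left out. With that covariate the log2 differences of Irf7, Oas2, Oas3 and Oasl2 turned to -0.16, -0.25, -0.30 and -0.30, none of them called, Usp18 turned from 1.14 to -2.10 and was called, and the members' median went from 0.34 to -0.30. Oasl1 lost its call under quantile normalization and Cmpk2 under median centring. In WT mice 5 were called, but 16 with array weights, 2 with only the WT groups fitted, 3 without samples 15, 17 and 20 together, 8 without samples 2, 6 and 7 together and 2 to 13 when each sample was left out. With sex as a covariate 5 were called, 3 of them shared (Ifitm3, Lgals3bp and Rtp4). Between genotypes before leukemia the count was 0 (1, Gbp3, with only those groups fitted; 0 to 0 leaving out each sample). Between genotypes in leukemia it was 0 (1, Rsad2, with array weights; 0 to 1 leaving out each sample), and for the interaction 0 (0 to 1 leaving out each sample). The cause of these changes was not tested.

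Counts over all genes moved too: in Pax5+/- mice from 10034 to 4194 with the covariate; in WT mice from 5780 to 3086 with it, 3537 with 2 groups and 3794 without sample 19; before leukemia from 97 to 444 with array weights and 40 without sample 19; in leukemia from 53 to 1 with 2 groups, 127 with array weights, 0 without sample 15 and 160 without sample 14; and in the interaction from 15 to 82, and to 98 without sample 14 and 6 without sample 19. Of 1855 alternative values of single members 1758 were counted as unchanged, 78 lost a call, 15 gained one and 4 called ones turned sign. A turn of sign in a difference that was not called did not count as a reversal. Such turns occurred. For Irf7 between the leukemias, the log2 difference of -0.25 ran from -0.93 to 0.69 when each sample was left out. No paired analysis was made, because every sample carries an identifier of its own and the labels used here give no pairs. The number of arrays and, for the 6 members below the array medians, low signal limit these results.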
